A study of Mus musculus with 6 samples.

Results

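The genes described here are 36 markers of macrophages and other leukocytes that live in skeletal muscle. They were chosen as rows of the deposited read-number table by their gene symbols, and all 36 were found among the 20632 genes of the table. Of these markers, 32 had enough counts to be tested among 12116 genes, and *Ms4a7*, *Trem2*, *Aif1* and *Cx3cr1* had not. RNA came from the whole muscle of the hind limb (quadriceps, calf and shin muscles together), 1 mouse per library, of 3 control mice and 3 mutant mice on a C57BL/6 background (C57BL/6J in the study's methods), all aged 3 months and not exercised. The study describes its mice as male. The control mice, labelled wild type (hereafter Baf155WT), carried the floxed *Baf155* alleles without Cre. The mutant mice, labelled Baf155 -/- (hereafter Baf155ΔMF), carried the same floxed alleles together with *MCK*-Cre. This transgene is driven by the muscle creatine kinase promoter, which is active in skeletal and cardiac muscle fibers, so *Baf155* is not deleted by design in macrophages, and whole muscle RNA holds both cell types.

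Macrophages of resting muscle lie mostly in the connective tissue around fibers and vessels. Many of them take up debris and iron-carrying proteins through scavenger receptors, and such resident cells are recognized by CD163, the mannose receptor MRC1, the folate receptor FOLR2 and the hyaluronan receptor LYVE1. Monocytes that enter from the blood carry the chemokine receptor CCR2, and all leukocytes carry the phosphatase CD45, encoded by *Ptprc*. In RNA from a whole tissue, fewer cells of a type and less RNA per cell cannot be told apart.

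The total per mouse was between 8426022 and 12469335 counts, and the floor of 3 counts was worth 0.230 to 0.351 CPM, the count divided by the TMM-scaled library total. This floor covers counting error only. *Smarcc1*, which encodes Baf155, had 241, 255 and 190 counts in the Baf155WT mice and 66, 63 and 66 counts in the Baf155ΔMF mice, a log2 fold change of -1.49 (adjusted p = 0.00907). Each sample title starts with a prefix (MS13, MS14 or MS15) whose meaning is not given. MS13 was shared by 1 Baf155WT mouse and 2 Baf155ΔMF mice, the other 2 Baf155WT mice carried MS15, and the last Baf155ΔMF mouse carried MS14. Outside MS13, prefix and genotype therefore cannot be told apart. In each series of values below, the first Baf155WT mouse and the first 2 Baf155ΔMF mice are the MS13 mice.

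Together, the 36 markers summed to 304.5, 766 and 638 CPM in the Baf155WT mice and to 284, 276 and 438 CPM in the Baf155ΔMF mice. The MS13 Baf155WT mouse thus lay with the MS13 Baf155ΔMF mice, and both MS15 Baf155WT mice lay above all others. Between genotypes, the log2 fold change (Baf155ΔMF minus Baf155WT, edgeR) of the 32 tested markers was below 0 for all 32, with a median of -0.91 and a range from -1.34 to -0.13. The median over all genes tested was -0.001, and 50.2% of all genes were below 0. None of the markers had an adjusted p under 0.05, a limit passed by 0.0248% of all genes tested. At an unadjusted p under 0.05, 23 of the 32 markers were lower in Baf155ΔMF muscle and 0 were higher, while 4.6% of all genes tested were lower at this limit. With DESeq2, 1 marker passed the adjusted limit (*Lyve1*), as did 0.182% of all genes tested. With limma-voom 0 markers passed it, beside 0.0413% of all genes, and 14 had an unadjusted p under 0.05, as had 7.76% of all genes.

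The same markers were then compared by title prefix, as MS13 against MS14 and MS15 with genotype in the model. At an adjusted p under 0.05, 18 of the 32 markers were lower in the MS13 mice and 0 were higher, and 1.11% of all genes tested were lower at this limit. DESeq2 gave an adjusted p to 6 of the 32 markers, of which 5 passed, and its filter on mean counts left the other 26 without one. At an unadjusted p under 0.05 in edgeR, 31 markers were lower, as were 9.7% of all genes. The log2 difference (MS13 minus the others) had a median of -1.01 over the markers and of -0.0097 over all genes tested. All 3 MS13 mice lay below all 3 other mice in 27 of the 32 markers, as in 13.8% of all genes tested. By contrast, all 3 Baf155ΔMF mice lay below all 3 Baf155WT mice in 1 marker, *Lyve1*, and 5.57% of all genes tested were so separated. MS13 was the only prefix that held both genotypes.

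**Figure D1:**
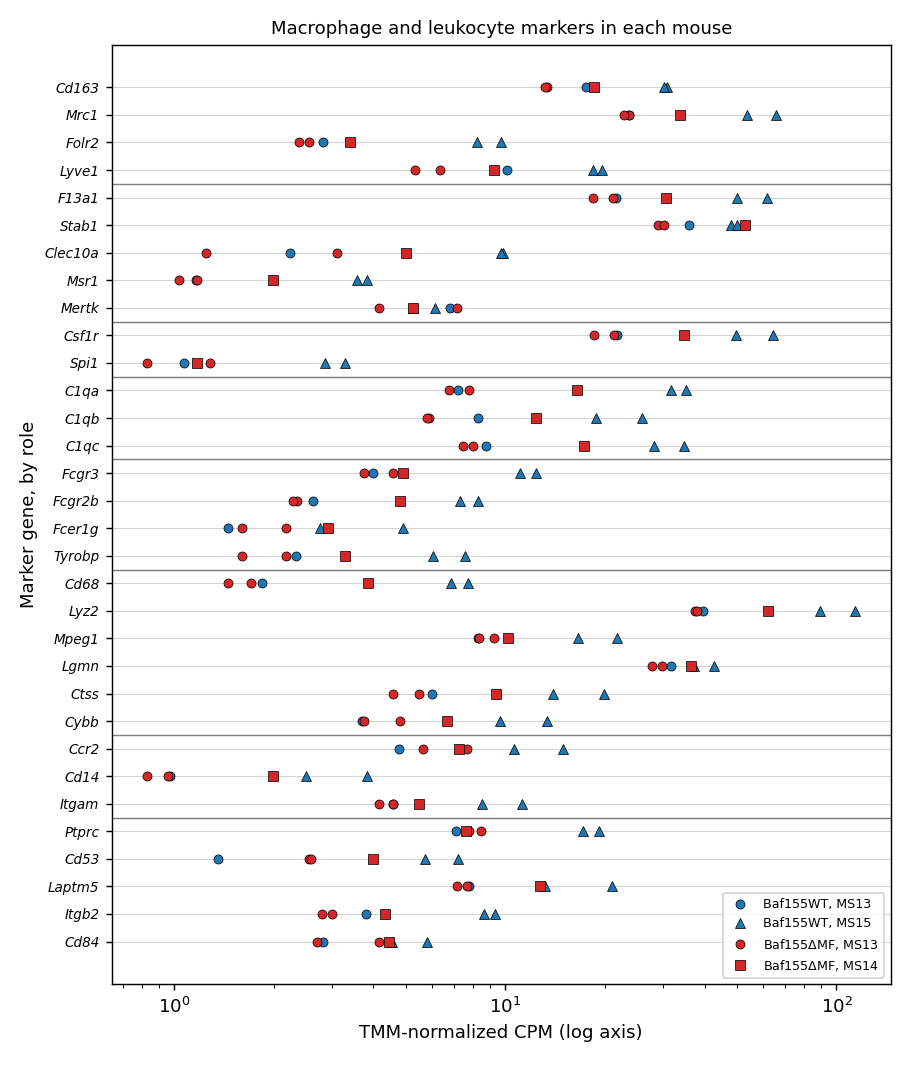
TMM-normalized CPM (log axis) of the 32 tested markers, 1 symbol per mouse, ordered by role with lines between roles. Color gives the genotype and shape gives the title prefix. In 27 of the 32 genes the 3 circles (MS13) lie left of all triangles (MS15) and squares (MS14).

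Of the 4 markers of resident macrophages, 3 were lower in the MS13 mice at an adjusted p under 0.05, as were 1.11% of all genes tested. Between genotypes 0 of the 4 passed this limit. *Cd163*, the scavenger receptor for haptoglobin-bound hemoglobin, had 17.5, 30.8 and 30.2 CPM in the Baf155WT mice and 13.3, 13.2 and 18.6 CPM in the Baf155ΔMF mice. Its genotypes overlapped, because the MS14 Baf155ΔMF mouse lay above the MS13 Baf155WT mouse. *Mrc1* had 23.6, 65.6 and 53.5 CPM in Baf155WT and 23.7, 22.8 and 33.8 CPM in Baf155ΔMF muscle. Its 3 MS13 mice lay close together and below the other 3 mice, whatever their genotype. *Folr2* had 2.82, 9.72 and 8.21 CPM in Baf155WT and 2.56, 2.39 and 3.39 CPM in Baf155ΔMF muscle. *Lyve1* had 10.1, 18.4 and 19.5 CPM in Baf155WT and 5.34, 6.33 and 9.24 CPM in Baf155ΔMF muscle. It was the marker in which the genotypes did not overlap (p = 0.1 in a two-sided exact permutation test, which cannot go lower with groups of 3).

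*Lyve1* had the lowest p for genotype of all markers, at -1.21 ± 0.26 (log2 fold change ± SE, edgeR, adjusted p = 0.367). With MS13 as a covariate it was -0.92 ± 0.14 (adjusted p = 0.0519), and between the MS13 mice alone -0.78. Over 16 alternatives with a test, its adjusted p ranged from 0.000382 to 0.992 and was under 0.05 in 3. Those were DESeq2 (0.00317), the fit without the filter on low counts (0.0463) and the fit without the MS13 Baf155WT mouse (0.000382). The log2 fold changes of *Cd163*, *Mrc1* and *Folr2* were -0.81, -0.84 and -1.34, and within the MS13 mice alone they were -0.39, -0.02 and -0.17. By prefix, *Cd163*, *Mrc1* and *Lyve1* were lower in the MS13 mice, with log2 differences of -0.66, -0.95 and -0.80 (adjusted p = 0.0280, 0.0278 and 0.0278 from edgeR). *Folr2* had a log2 difference of -1.15 with an adjusted p of 0.0536. *Lyve1* also marks lymphatic endothelium. The 5 genes of a list for those vessels had log2 fold changes between genotypes of 0.43 (*Prox1*), 0.19 (*Flt4*), -0.22 (*Reln*), -0.34 (*Pdpn*) and -0.53 (*Mmrn1*). Of the 5, 0 had an unadjusted p under 0.05 (edgeR), a limit that 7.95% of all genes tested passed. By prefix, 1 of them was lower in the MS13 mice, *Mmrn1* (log2 difference -0.98, adjusted p = 0.0153). At an adjusted p under 0.05, 1.11% of all genes tested were lower there. The part of these vessels in the values of *Lyve1* was not tested.

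Further genes of tissue macrophages followed the prefix to different degrees. *F13a1*, the catalytic subunit of coagulation factor XIII, had 21.7, 61.7 and 50.1 CPM in Baf155WT and 21.1, 18.4 and 30.6 CPM in Baf155ΔMF muscle. It was lower in the MS13 mice by a log2 difference of -1.02 (adjusted p = 0.0229). *Clec10a*, a galactose-type lectin, and *Stab1*, a scavenger receptor that endothelium also expresses, were lower there too, with log2 differences of -1.69 and -0.64 (adjusted p = 0.0280 and 0.0228). For *Stab1*, the MS14 Baf155ΔMF mouse had the highest level of all, 53.1 CPM against 35.95, 47.9 and 49.97 CPM in the Baf155WT mice. *Msr1*, the class A scavenger receptor, had a log2 difference of -1.28 with an adjusted p of 0.0551. *Mertk*, the receptor that binds apoptotic cells through bridging ligands, was the exception. It had 6.80, 6.12 and 5.26 CPM in Baf155WT and 7.15, 4.15 and 5.26 CPM in Baf155ΔMF muscle, and its log2 difference by prefix was 0.18 (adjusted p = 0.688). The estimated counts of *Clec10a* were not whole numbers in any of the 6 mice, so its reads were in part shared with other genes.

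The lineage is set by the transcription factor PU.1, encoded by *Spi1*, and maintained by the CSF1 receptor. *Csf1r* had 21.8, 64.5 and 49.6 CPM in Baf155WT and 18.6, 21.3 and 34.7 CPM in Baf155ΔMF muscle. It was lower in the MS13 mice by a log2 difference of -1.10 ± 0.15 (SE, adjusted p = 0.0153). *Spi1* had 1.07, 3.29 and 2.86 CPM in Baf155WT and 1.28, 0.831 and 1.17 CPM in Baf155ΔMF muscle. Here both MS15 mice lay above the other 4 mice, and the MS14 mouse lay among the MS13 mice. The ligands of the receptor, *Csf1* and *Il34*, are made by other cells, and their log2 fold changes between genotypes were -0.27 and 0.14 (adjusted p = 0.655 and 0.894). By prefix they were -0.40 and 0.17 (adjusted p = 0.104 and 0.803).

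The 3 genes of complement component C1q, whose chains assemble into a single recognition molecule and which macrophages express together, had the lowest p-values by prefix of all markers. They lie side by side on chromosome 4 of GRCm38, with *C1qb* at chr4:136880129-136886187, *C1qc* at chr4:136889804-136893065 and *C1qa* at chr4:136895917-136898803, all on the minus strand. *C1qa* had 7.19, 35.2 and 31.7 CPM in Baf155WT and 7.79, 6.75 and 16.5 CPM in Baf155ΔMF muscle. *C1qb* had 8.26, 25.9 and 18.7 CPM against 5.87, 5.81 and 12.4 CPM, and *C1qc* had 8.74, 34.6 and 28.2 CPM against 8.01, 7.48 and 17.3 CPM. In each of the 3 genes the order was the same, with both MS15 Baf155WT mice at the top, the MS14 Baf155ΔMF mouse between, and the MS13 mice of both genotypes below. The log2 differences of *C1qa*, *C1qb* and *C1qc* by prefix were -1.71, -1.28 and -1.51 (SE 0.20, 0.17 and 0.17), and edgeR adjusted p was 0.00673, 0.0153 and 0.00573. Between genotypes the log2 fold changes were -1.28, -1.16 and -1.15, each with an adjusted p of 0.601, and within the MS13 mice alone they were 0.01, -0.49 and -0.17.

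For these markers, the windows of 250 bases before the transcription starts were read from RefSeq promoters on GRCm38.p6. An entry was matched by symbol for 27 of the 36 markers, some with 2 starts, which gave 33 windows. They were searched on both strands for GAGGAA, the core of the purine-rich box that PU.1 binds (TTCCTC when read on the other strand). The box was found in 15 of the 33 windows (45.5%) and in 23.3% of 32851 windows of all genes, and a match shows letters only, not binding. By gene, 14 of the 27 markers had it in at least 1 window. Windows of the same gene can overlap, and the 2 windows of *Fcgr3* hold the same match, so the 15 are not all separate sites. Shown here are *C1qb* and *C1qc*, which were called by prefix, and *Mrc1* and *Cd163* as resident markers with and without a match. The sequences run 5′ to 3′ along the gene's strand, with matches in capitals. They lie at chr4:136886201-136886450 (minus strand), chr4:136892915-136893164 (minus strand), chr2:14229164-14229413 (plus strand) and chr6:124304401-124304650 (plus strand).
C1qb: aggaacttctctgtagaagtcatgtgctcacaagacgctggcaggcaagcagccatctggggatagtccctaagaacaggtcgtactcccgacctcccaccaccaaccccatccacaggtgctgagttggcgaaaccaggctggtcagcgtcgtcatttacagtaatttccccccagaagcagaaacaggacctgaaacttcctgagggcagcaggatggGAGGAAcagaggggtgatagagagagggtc
C1qc: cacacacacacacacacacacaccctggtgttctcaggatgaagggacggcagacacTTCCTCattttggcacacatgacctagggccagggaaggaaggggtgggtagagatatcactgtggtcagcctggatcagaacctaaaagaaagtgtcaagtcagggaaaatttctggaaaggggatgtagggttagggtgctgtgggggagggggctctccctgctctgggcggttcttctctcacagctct
Mrc1: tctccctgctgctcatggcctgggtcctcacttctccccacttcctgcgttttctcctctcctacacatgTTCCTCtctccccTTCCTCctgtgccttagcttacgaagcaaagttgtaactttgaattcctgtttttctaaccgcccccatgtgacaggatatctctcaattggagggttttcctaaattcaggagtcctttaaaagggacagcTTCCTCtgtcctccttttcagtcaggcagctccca
Cd163: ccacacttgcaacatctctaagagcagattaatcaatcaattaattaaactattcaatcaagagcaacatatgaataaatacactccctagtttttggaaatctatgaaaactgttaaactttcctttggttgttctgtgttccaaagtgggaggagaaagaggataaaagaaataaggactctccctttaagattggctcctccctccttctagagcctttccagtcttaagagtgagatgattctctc

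The number of matches was 1 in *C1qb*, 1 in *C1qc*, 3 in *Mrc1* and 0 in *Cd163*, although all 4 genes were lower in the MS13 mice. *Mertk* and *Ccr2*, which were not called by prefix, also had 0 matches, and *Itgam*, which was not called either, had 2.

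Fc receptors and their signaling adaptors were next. *Tyrobp*, which encodes the adaptor DAP12, had 2.33, 7.57 and 6.07 CPM in Baf155WT and 1.60, 2.18 and 3.27 CPM in Baf155ΔMF muscle. It and the inhibitory receptor gene *Fcgr2b* were lower in the MS13 mice (log2 differences of -1.21 and -1.32, adjusted p = 0.0460 and 0.0228). The activating receptor gene *Fcgr3* had 3.98, 11.1 and 12.4 CPM against 4.59, 3.74 and 4.91 CPM, and its log2 difference by prefix was -0.96 (adjusted p = 0.0830). The shared gamma chain gene *Fcer1g* had a log2 difference of -1.004 (adjusted p = 0.140). All 3 MS13 mice were below the other mice in each of these 4 genes, as in 13.8% of all genes tested. The estimates of *Fcgr3* and *Fcgr2b*, which are paralogs, were not whole numbers in 4 of the 6 mice.

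Among 6 genes of the phagosome and lysosome, 4 were lower in the MS13 mice at an adjusted p under 0.05, as were 1.11% of all genes tested. *Lyz2*, a lysozyme gene of myeloid cells, had the highest level per length of all 36 markers. It had 39.5, 114 and 89.1 CPM in Baf155WT and 37.5, 37.8 and 62.3 CPM in Baf155ΔMF muscle, with a log2 difference by prefix of -1.05 (adjusted p = 0.0153). Its estimates were fractional in all 6 mice. *Cd68*, a lysosomal membrane glycoprotein, had 1.85, 7.73 and 6.87 CPM against 1.71, 1.45 and 3.86 CPM (log2 difference by prefix -1.65, adjusted p = 0.0178). The protease gene *Ctss* and *Cybb*, the catalytic subunit of the phagocyte NADPH oxidase, had log2 differences of -1.21 and -1.15 (adjusted p = 0.0273 and 0.0468). *Mpeg1*, a pore-forming protein of phagocytes, and the protease gene *Lgmn* did not pass, with log2 differences of -0.75 and -0.34 (adjusted p = 0.0984 and 0.0994). The level of *Lgmn* lay between 27.8 and 42.7 CPM, and it is also expressed outside leukocytes. Per length of the annotated exons (GENCODE M21), the mean of both genotypes was 48.1 RPKM for *Lyz2*, 16.8 RPKM for *C1qa*, 14.7 RPKM for *Lgmn*, 11.8 RPKM for *C1qb* and 9.004 RPKM for *C1qc*, and the other 31 markers were between 0.0940 and 7.27 RPKM.

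None of the 3 tested monocyte markers passed the adjusted limit in either comparison. Of all genes tested, 0.0248% passed it between genotypes and 1.73% by prefix. *Ccr2*, the receptor that guides monocytes out of the marrow, had 4.76, 14.9 and 10.6 CPM in Baf155WT and 5.66, 7.68 and 7.25 CPM in Baf155ΔMF muscle. Within the MS13 mice alone, both Baf155ΔMF mice were above the Baf155WT mouse, with a log2 difference of 0.45. *Cd14*, the lipopolysaccharide co-receptor, had 0.972, 3.83 and 2.499 CPM against 0.961, 0.831 and 1.99 CPM. *Itgam*, the alpha chain of the integrin Mac-1, had 4.57, 11.2 and 8.48 CPM against 4.59, 4.15 and 5.50 CPM. The log2 differences of *Ccr2*, *Cd14* and *Itgam* by prefix were -0.79, -1.43 and -0.76 (adjusted p = 0.162, 0.0581 and 0.100). The estimates of *Ccr2* were fractional in 5 of the 6 mice. From a further list of 10 monocyte genes, 2 could be tested, *Fn1* and *Ace*, which other cells also express. Both were lower in the MS13 mice (log2 differences of -0.51 and -0.48, adjusted p = 0.0221 and 0.0255), as were 1.11% of all genes tested. *Ly6c2*, which defines the classical monocytes of blood, had at most 0.459 CPM in any mouse.

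Of the 5 genes shared by most leukocytes, 2 were lower in the MS13 mice, *Itgb2* (the beta chain of the leukocyte integrins) and *Laptm5* (a lysosomal membrane protein). Both had an adjusted p of 0.0460, with log2 differences of -0.95 and -0.97, and 1.11% of all genes tested were lower at an adjusted p under 0.05. *Ptprc* had 7.09, 19.2 and 17.1 CPM in Baf155WT and 8.44, 7.79 and 7.60 CPM in Baf155ΔMF muscle. Both MS15 mice lay above the other 4 mice, and the MS14 mouse lay among the MS13 mice. In a fit with an interaction of genotype and MS13, it was the 1 of the 32 markers with an adjusted p under 0.05, as had 0.561% of all genes tested. This fit has 1 mouse each for Baf155WT within MS13 and Baf155ΔMF outside it, so it assumes that these mice vary like the others. *Cd53*, a tetraspanin, had 1.36, 7.19 and 5.71 CPM against 2.56, 2.60 and 3.98 CPM, and its log2 fold change between the MS13 mice alone was 0.84. *Cd84*, a receptor of the SLAM family, had 2.82, 5.81 and 4.55 CPM against 4.16, 2.70 and 4.44 CPM, with log2 values of -0.25 by genotype and -0.63 by prefix (adjusted p = 0.811 and 0.203).

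The 4 markers that were too low to be tested are given as counts. *Ms4a7* had 4, 37 and 12 counts in Baf155WT and 8, 5 and 5 counts in Baf155ΔMF muscle. *Trem2*, the lipid-sensing receptor that signals through DAP12, had 0, 11 and 7 counts against 4, 3 and 5 counts. *Aif1*, which encodes the macrophage protein IBA1, had 2, 18 and 10 counts against 5, 3 and 6 counts. The fractalkine receptor gene *Cx3cr1* had 6, 13 and 10 counts against 6, 8 and 7 counts, and its annotated span overlaps other genes, among them the muscle gene *Xirp1*. In each of the 4 genes the highest count was in the same MS15 Baf155WT mouse, which also had the deepest library, and differences between these counts were not tested.

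**Figure D2:**
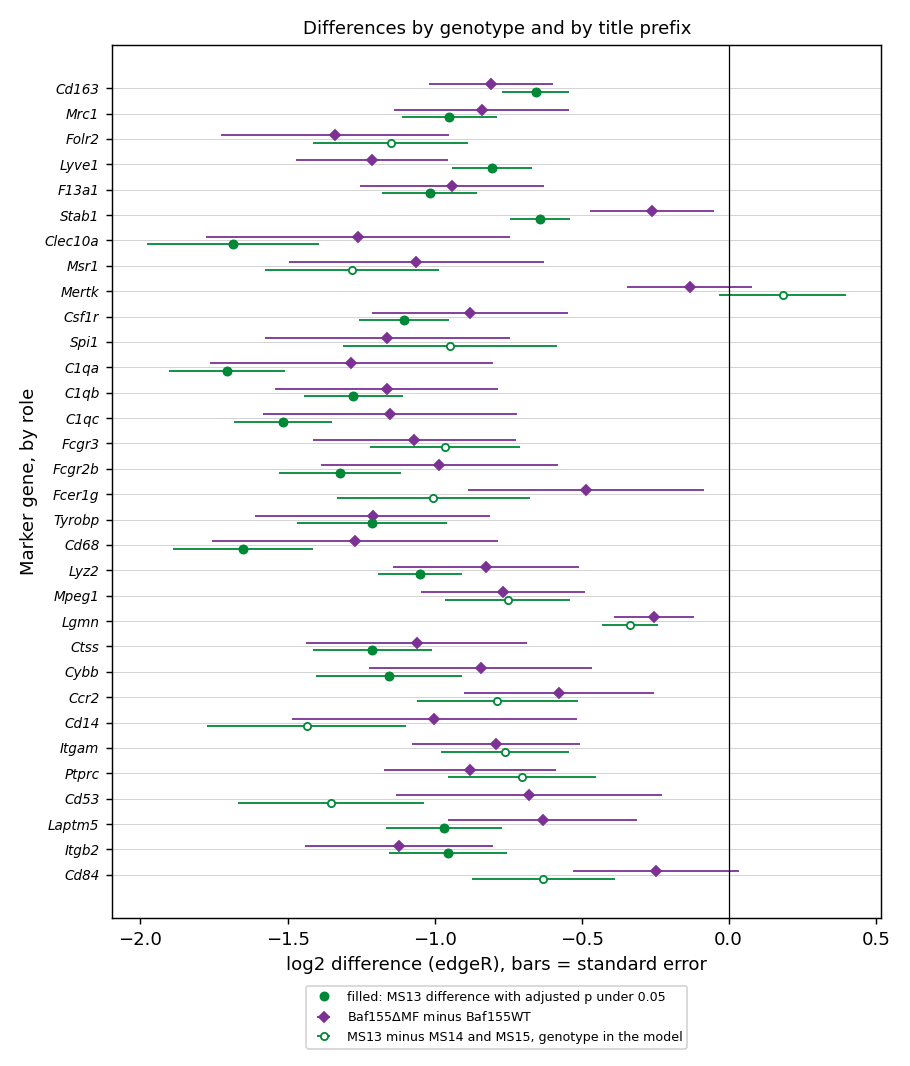
Log2 difference of each tested marker from edgeR, with bars for the standard error. Diamonds show Baf155ΔMF minus Baf155WT, and circles show MS13 minus the other prefixes with genotype in the model, filled for the 18 markers with an adjusted p under 0.05. All 32 diamonds lie left of 0, and 31 of 32 circles do.

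The comparison between genotypes was repeated within the limits that the prefixes set. Between the MS13 mice alone, which were 1 Baf155WT and 2 Baf155ΔMF mice, the log2 fold change had a median of -0.11 over the 32 markers, a range from -0.78 to 0.84, and was below 0 in 23 of them. A single Baf155WT mouse allows no test there. Between the MS14 Baf155ΔMF mouse and the MS15 Baf155WT mice, the median was -0.81 and 31 of 32 markers were below 0. Within the Baf155WT mice, the MS13 mouse differed from the MS15 mice by a median log2 difference of -1.37, and within the Baf155ΔMF mice the MS13 mice differed from the MS14 mouse by -0.63. Over all genes tested, the medians of these differences were, in the same order, -0.0006, 0.0022, -0.0084 and -0.0084. With MS13 as a covariate, the genotype difference had a median of -0.52, and 0 of 32 markers passed an adjusted p of 0.05, a limit that 0.0413% of all genes passed, while 19 had an unadjusted p under 0.05, as had 6.38% of all genes. With all 3 prefixes as a covariate the genotype term rests on the same 3 MS13 mice, and the median was -0.10.

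Among the fits that left out a mouse, markers were called between genotypes only when the MS13 Baf155WT mouse was left out. Without it, 27 of 33 tested markers had an adjusted p under 0.05 and a lower level in Baf155ΔMF muscle, and 955 of all genes tested passed (7.77%). No prefix then holds both genotypes, so in this fit genotype and prefix cannot be told apart. Every Baf155ΔMF mouse was then below both remaining Baf155WT mice in 29 of the 32 markers, as in 19.9% of all genes. Leaving out each of the other 5 mice in turn gave 0 markers, with 5 to 27 at an unadjusted p under 0.05, a limit that 3.69% to 10.2% of all genes passed. The calls by prefix rested on several mice. Without the MS14 Baf155ΔMF mouse, the prefix term rests on 1 MS13 and 2 MS15 Baf155WT mice. Without the MS13 Baf155WT mouse, it rests on 2 MS13 and 1 MS14 Baf155ΔMF mice. Each of these fits has a single mouse on 1 side of the prefix comparison and assumes that it varies like the others. The numbers of markers called by prefix were as follows. There were 4 without the MS13 Baf155WT mouse, and 5 and 3 without each MS15 Baf155WT mouse. There were 28 without the MS14 Baf155ΔMF mouse, and 16 and 15 without each MS13 Baf155ΔMF mouse. In the same order, 60, 11, 9, 965, 103 and 107 of all genes passed, with 12211 to 12350 genes tested in each fit. The MS13 mice were all below the others in 27 to 31 of the 32 markers when any mouse was left out, as in 17.7% to 23.9% of all genes. Leaving out a mouse cannot undo a full separation, so this count could not fall below the 27 found with all mice. It therefore does not show how stable the order is.

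**Figure D3:**
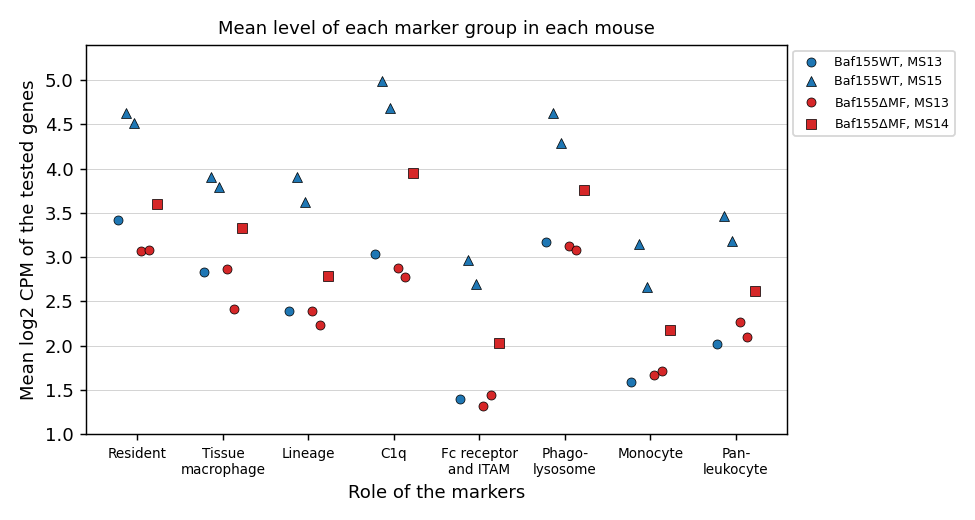
Mean log2 CPM of the tested markers of each role, 1 symbol per mouse, with color for genotype and shape for title prefix. In each role both MS15 Baf155WT mice are highest, and the MS14 Baf155ΔMF mouse lies above the MS13 mice.

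Resident markers were then set beside the other groups within each mouse, which removes any difference in scaling between libraries. The mean log2 CPM of the 4 resident markers minus that of the 5 genes shared by most leukocytes was 1.40, 1.17 and 1.33 in the Baf155WT mice and 0.80, 0.99 and 0.98 in the Baf155ΔMF mice. The genotypes did not overlap in this difference, which was 1.30 ± 0.12 (SD, n = 3) in Baf155WT and 0.92 ± 0.11 (SD, n = 3) in Baf155ΔMF muscle. The MS13 Baf155WT mouse had the highest value, and the mean was 1.06 in the MS13 mice and 1.16 in the others. Against the monocyte markers, the same difference of means was 1.82, 1.48 and 1.85 in Baf155WT and 1.40, 1.38 and 1.42 in Baf155ΔMF mice, again without overlap. The genotypes were apart in these 2 of 7 comparisons and overlapped in the other 5, which were with the lineage, C1q, phagosome and lysosome, Fc receptor and further tissue macrophage markers. All 7 comparisons use the same mean of the resident markers, so they are not separate from each other. No test was made on these means, because their genes were chosen with results of these mice known. As a log2 ratio of summed CPM, resident markers against genes shared by most leukocytes were 1.24, 1.01 and 1.16 in Baf155WT and 0.80, 0.96 and 0.97 in Baf155ΔMF muscle, a mean difference of -0.23 in place of -0.38. Against the monocyte markers the same ratio overlapped between genotypes, with 2.31, 2.01 and 2.31 against 1.92, 1.73 and 2.06.

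**Figure D4:**
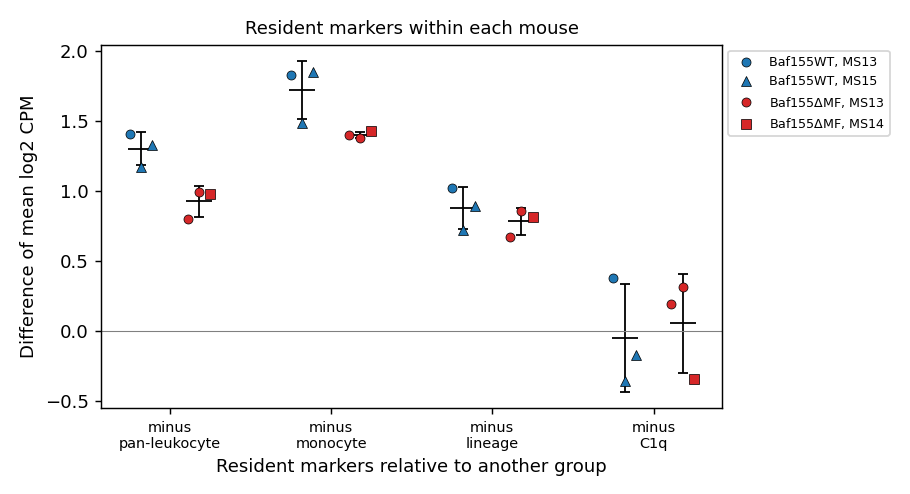
Mean log2 CPM of the resident markers minus that of 4 of the 7 other marker groups in each mouse, with the mean and SD of each genotype (n = 3) as bars. The genotypes are apart for the pan-leukocyte and monocyte groups and overlap for the lineage and C1q groups.

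Lists of genes for other cells of muscle were counted in the same fits. Of 15 further genes of resident macrophages, 13 were tested, with a median log2 fold change between genotypes of -0.92, beside -0.001 over all genes tested. None passed an adjusted p of 0.05 between genotypes, and 8 were lower at an unadjusted p under 0.05, as were 4.6% of all genes. By prefix, 3 were lower in the MS13 mice at an adjusted p under 0.05 (*Siglec1*, *Adgre1* and *Fcrls*), as were 1.11% of all genes. The others did not pass, among them *Cd36*, which was higher in all 3 MS13 mice (log2 difference 0.32, adjusted p = 0.0782 from edgeR). All 3 MS13 mice lay below the other mice in 8 of the 13, as in 13.8% of all genes. All 3 Baf155ΔMF mice lay below all 3 Baf155WT mice in 2 of the 13, as in 5.57% of all genes.

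Lymphocyte markers were close to the limit of detection. None of 12 genes of T and NK cells and none of 8 genes of B cells could be tested, and their summed levels were at most 2.98 and 2.45 CPM in any mouse. Of 11 neutrophil genes only *Cxcr2* was tested, and *Ly6g*, *Mpo* and *Elane* had 0 counts in each mouse. Of 8 mast cell genes 5 were tested, with a median log2 fold change between genotypes of -1.15, beside -0.001 over all genes tested. By prefix, 1 of the 5 was lower in the MS13 mice at an adjusted p under 0.05, as were 1.11% of all genes. This was *Cma1*, a mast cell chymase (log2 difference -1.47, adjusted p = 0.0460 from edgeR). *Cpa3*, *Mcpt4*, *Tpsb2* and *Kit* did not pass (adjusted p = 0.112, 0.105, 0.245 and 0.942), with log2 differences of -1.29, -1.40, -1.07 and 0.06. Of 9 genes of dendritic cells 6 were tested, and 0 passed in either comparison. Of all genes tested, 0.0248% passed between genotypes and 1.73% by prefix.

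Of 8 fibro-adipogenic genes, 3 were lower in the MS13 mice at an adjusted p under 0.05, as were 1.11% of all genes tested. The other 5 did not pass, among them the collagen genes *Col1a1* and *Col3a1* (adjusted p = 0.581 and 0.202). Of the 3, *Gsn* encodes the actin-severing protein gelsolin and *Lum* and *Dcn* encode matrix proteoglycans. The log2 differences of *Gsn*, *Lum* and *Dcn* were -0.53, -0.52 and -0.44 (adjusted p = 0.0228, 0.0447 and 0.0460). The summed level of the 8 genes was 3283, 4359 and 4195 CPM in the Baf155WT mice and 3043, 2889 and 4370 CPM in the Baf155ΔMF mice. The median log2 differences by prefix were 0.21 for 8 genes of blood endothelium, 0.06 for 4 of satellite cells and 0.11 for 9 of myofibers, with 0 genes passing. The TMM factors also split by prefix, from 0.958 to 0.972 in MS13 and from 1.02 to 1.05 in the others. With scaling by library size alone, 23 of 32 markers were lower in the MS13 mice at an adjusted p under 0.05, in place of 18. At this limit 374 of the 12116 genes tested passed in either direction with that scaling, and 210 with TMM. The part of these differences in the marker values was not tested.

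**Figure D5:**
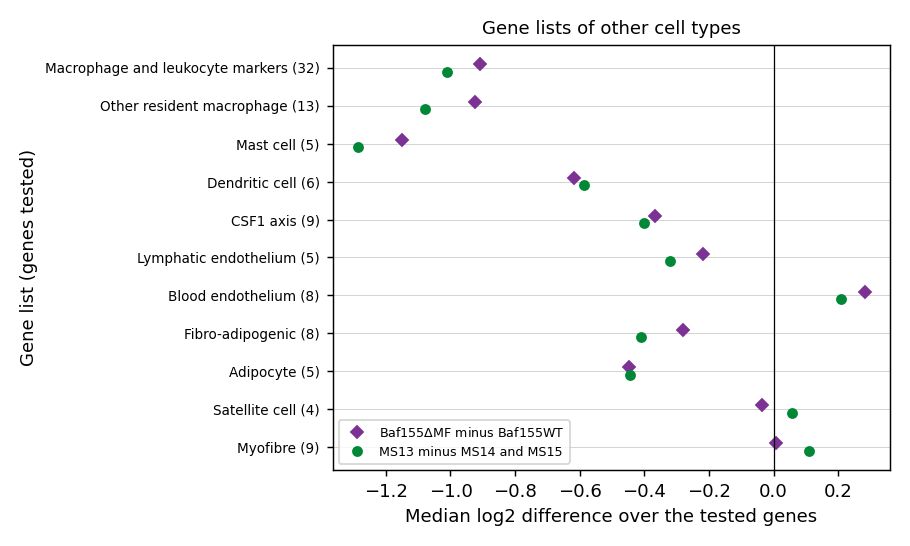
Median log2 difference over the tested genes of each list, with the number tested in brackets, between genotypes (diamonds) and between MS13 and the other prefixes (circles). The markers described here lie near -0.9 and -1.0, and the lists of blood endothelium, satellite cells and myofibers lie near or above 0.

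Outside the markers, the genes with the most similar pattern over the 6 mice were sought by Pearson's r with the mean log2 CPM of the 32 markers. The 8 most similar genes with a mean of at least 1 CPM had r from 0.995 to 0.9995, and no p is given because the mice fall into prefixes and the genes were picked for r. They were *Lum*, *Hsd11b1*, *Rnase4*, *Ttc7*, *Igfbp4*, *Chchd6*, *Fcrls* and *Ndufa3*. *Lum* had 45.4, 77.5 and 70.5 CPM in Baf155WT and 46.0, 44.0 and 56.2 CPM in Baf155ΔMF muscle. *Fcrls* is on the list of further resident macrophage genes and *Lum* on the fibro-adipogenic list.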

How the data were processed

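For 3 mice per genotype, the authors sequenced stranded total RNA libraries (TruSeq) of hind limb muscle and deposited expected counts (estimated reads per gene, not normalized) for 20632 gene symbols. The submitters' processing notes name CASAVA 1.8.2, cutadapt 1.10, Bowtie2 2.2.7, TopHat2 2.1.1, RSEM 1.2.30 and limma, and the builds mm10 and GRCm38. The annotation, and whether counting used strand, are not given in the sources used here. For 2919 genes an estimate was not whole (tolerance 1e-06). Where reads are shared between genes, as for *Clec10a* and *Lyz2*, values are uncertain.

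Estimates were rounded and fitted in R 4.3.3 with edgeR 4.0.16 (filterByExpr with a minimum count of 10 and a minimum total of 15, TMM, quasi-likelihood F test), with Benjamini-Hochberg adjustment over the 12116 genes kept. Genotype was tested without a covariate, and MS13 against other prefixes with genotype as a covariate. Mean levels use log2 CPM with a prior count of 2, and differences within MS13 are on this scale. RPKM are CPM per kilobase of GENCODE M21 exons. The fits were checked on simulated data. As alternatives, voom (limma 3.58.1), DESeq2 1.42.0, other scalings, other filters, a robust fit, prefix covariates and leaving out each mouse were run. The test of an interaction between genotype and prefix, and 2 other ways of combining resident markers, were added after seeing the data.

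The markers, their roles and the lists were chosen with earlier results of these data known. Every marker is named, with values per mouse for the resident, lineage, C1q, monocyte and pan-leukocyte groups and for markers with low p-values. From each other list, up to 3 genes with the lowest p for genotype could be named. Genes named for passing or not passing by prefix, for defining a cell type or for being too low to test were chosen after their values were seen. A gene of the list of further resident macrophage genes is not reported here.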

Additional observations from a re-analysis of the deposited data

Results flagged for a closer look

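*Ptprc*, the gene for the leukocyte phosphatase CD45, is given here because its genotype difference within MS13 and outside MS13 differed in a fit with an interaction term. Within MS13 its log2 difference between genotypes (Baf155ΔMF minus Baf155WT) was 0.19, and outside MS13 it was -1.23. The interaction term from edgeR was 1.45 on the log2 scale, with an adjusted p of 0.0341, and 1 of the 32 markers passed this limit, as did 0.561% of all genes tested. At an unadjusted p under 0.05, 14 of the 32 markers passed, and 11.1% of all genes. The Baf155WT level within MS13 and the Baf155ΔMF level outside it each rest on 1 mouse, so the test assumes that these mice vary like the others, and outside MS13 the genotypes carry different prefixes.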

How the results depend on the processing

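No paired analysis was possible because the labels give no replicate numbers that tie mice across genotypes. Where a value moved, the cause was not tested. At this depth, 4 of the 36 markers had too few counts for a test.

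The number of all genes with an adjusted p under 0.05 between genotypes, which was 3, was 22 in DESeq2, 17 when low counts were kept, 5 in limma-voom, 5 with MS13 and 16 with all 3 prefixes as a covariate, and 0 to 955 when each mouse was left out. In the 2 fits with 0 genes, an unadjusted p under 0.05 was reached by 451 and 568. The number of markers, which was 0, was 1 in DESeq2 and when low counts were kept, and 0 to 27 when each mouse was left out. By prefix, the number of all genes, which was 210, was 374 with library size only, 406 when low counts were kept, 406 with a robust fit, and 9 to 965 when each mouse was left out. The number of markers, which was 18, was 5 in DESeq2, where 26 of the 32 had no adjusted p, and 3 to 28 when each mouse was left out.

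The median log2 fold change of the markers between genotypes was -0.10 with all 3 prefixes as a covariate and -0.11 in the MS13 mice alone. The resident minus pan-leukocyte difference was -0.51 in the MS13 mice alone and -0.23 as a log2 ratio of summed CPM. The direction between genotypes turned for 9 markers with all 3 prefixes as a covariate and in the MS13 mice alone, which are not separate checks, since both rest on the same 3 MS13 mice. With the covariate and in MS13 alone, respectively, the log2 fold changes were 0.0152 and 0.0123 for *C1qa*, 0.49 and 0.45 for *Ccr2*, 0.92 and 0.84 for *Cd53*, 0.28 and 0.24 for *Cd84*, 0.21 and 0.19 for *Cybb*, 0.38 and 0.32 for *Fcer1g*, 0.0623 and 0.0542 for *Fcgr3*, 0.0897 and 0.0852 for *Mpeg1*, and 0.19 and 0.19 for *Ptprc*. When each mouse was left out, it ranged from -0.47 to 0.0223 for *Cd84* and from -0.80 to 0.0647 for *Fcer1g* (highest without an MS15 Baf155WT mouse), and from -0.37 to 0.0414 for *Mertk* (highest without an MS13 Baf155ΔMF mouse). The prefix difference of *Ptprc* ranged from -1.35 to 0.0935 (highest without the MS13 Baf155WT mouse).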

Other observations

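Genes of macrophage activation were mostly too low to be tested. Of 14 such genes 5 were tested, and *Tnf*, *Il1b*, *Il6*, *Il10* and *Arg1* had too few counts. *Retnla*, a secreted protein of alternatively activated macrophages had 11.7, 23.2 and 26.6 CPM in the Baf155WT mice and 7.26, 9.76 and 13.6 CPM in the Baf155ΔMF mice. It was lower in the MS13 mice, with a log2 difference of -0.90 (adjusted p = 0.0278 from edgeR). No other gene of the 5 was lower there at an adjusted p under 0.05, as were 1.11% of all genes tested. *Nos2*, the inducible nitric oxide synthase gene, went the other way between genotypes, with 1.85, 1.53 and 1.43 CPM against 2.56, 2.49 and 3.98 CPM and a log2 fold change of 0.90 (adjusted p = 0.601).

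Of 5 proliferation genes 2 were tested, and 0 passed an adjusted p of 0.05 in either comparison. Of all genes tested, 0.0248% passed between genotypes and 1.73% by prefix. Of 6 erythroid genes 5 were tested, and their summed level was 777, 1227 and 622 CPM in the Baf155WT mice and 371, 505 and 805 CPM in the Baf155ΔMF mice, an order that differed from that of the macrophage markers. Of 5 adipocyte genes, 1 was lower in the MS13 mice at an adjusted p under 0.05, as were 1.11% of all genes tested. This was *Cfd*, the gene for adipsin (log2 difference -0.94, adjusted p = 0.0278 from edgeR). *Adipoq*, *Plin1*, *Cidec* and *Lep* did not pass (log2 differences of -0.52, -0.41, -0.45 and -0.17, adjusted p = 0.203, 0.349, 0.332 and 0.821). Between genotypes 0 of the 5 passed, and *Adipoq* had the lowest p (log2 fold change -0.86, adjusted p = 0.601).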
